A study of Mus musculus with 6 samples.

Results

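The 8 genes described here, Snai1, Snai2, Zeb1, Zeb2, Twist1, Twist2, Tcf3 and Tcf4, encode the transcription factors best known for the epithelial-mesenchymal transition (EMT). They were chosen by name, and all 8 were found among the 29955 genes of the deposited expression table. The study asked how gene expression depends on RNF40, a subunit of the ubiquitin ligase that places a single ubiquitin on histone H2B. RNA was sequenced from mouse embryonic fibroblasts (MEFs) at passage 3, with 3 Rnf40+/+ and 3 Rnf40-/- libraries. The Rnf40-/- cells came from embryos with loxP sites around exons 3 and 4 of Rnf40 and a tamoxifen-inducible Cre (CreERT2) in the ubiquitously expressed Rosa26 locus. They were grown in 250 nM 4-hydroxytamoxifen (4-OHT) for 5 days and then without it for 3 days. The labels do not state whether the Rnf40+/+ cells received 4-OHT, so deletion and drug exposure cannot be told apart in this comparison. No source used here says that the samples of a genotype came from separate embryos, so p-values measure only the spread between these samples, which may be technical. Because the RNA was from whole cultures, fewer cells of a type and less RNA per cell cannot be told apart.

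In an EMT, epithelial cells loosen their junctions and take on a motile, matrix-producing state. SNAIL (Snai1, Snai2) and ZEB (Zeb1, Zeb2) proteins are zinc-finger repressors that bind E-box motifs in epithelial genes such as Cdh1, which encodes E-cadherin. TWIST proteins are basic helix-loop-helix (bHLH) factors that bind DNA as dimers with E proteins, among them the products of Tcf3 (E2A) and Tcf4 (E2-2), and ID proteins tie up E proteins in dimers that cannot bind DNA. Fibroblasts are mesenchymal cells that express these factors without passing through an EMT in culture. Tcf3 and Tcf4 are not the WNT pathway genes Tcf7l1 and Tcf7l2, which carry the same older protein names.

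All 8 genes had lower values in the Rnf40-/- libraries, and for none of them did the genotypes overlap. Snai2, Snai1 and Tcf3 fell most, to 45.5%, 51.9% and 56.4% of their Rnf40+/+ means, whereas Tcf4 and Twist2 kept 70.2% and 70.9%, and Zeb1, Zeb2 and Twist1 kept 81.1%, 82.4% and 85.5%. All 8 passed the test (adjusted p under 0.05, limma), against a background of 24.1% of the 16378 genes tested that were lower and 23.3% that were higher. Every Rnf40-/- library lay below every Rnf40+/+ library for 28.7% of the genes tested. Their median log2 fold change was -0.50, and all genes tested had a median of -0.0035 with quartiles at -0.35 and 0.32. Among the 3305 genes tested with an Rnf40+/+ mean within the range of the 8, 29.5% were called lower and the median log2 fold change was 0.016.

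The motif most often described for SNAIL and ZEB proteins is the E-box CACCTG, which reads CAGGTG on the other strand. RefSeq promoter sequences (GRCm38.p6, 250 bases before to 50 after the start site) are shown for Snai1 and Tcf3, the genes with an entry that fell most, at chr2:167537945-167538244 (+) and chr10:80433586-80433885 (-). Those of Dsp at chr13:38151044-38151343 (+) and Epcam at chr17:87635729-87636028 (+) are shown beside them as genes of the epithelial side. Dsp had the largest rise in its list. Epcam was near the detection limit and was picked outside the naming rule given below. Each sequence reads 5′ to 3′ along its gene, and capitals mark CACCTG or CAGGTG.
Snai1: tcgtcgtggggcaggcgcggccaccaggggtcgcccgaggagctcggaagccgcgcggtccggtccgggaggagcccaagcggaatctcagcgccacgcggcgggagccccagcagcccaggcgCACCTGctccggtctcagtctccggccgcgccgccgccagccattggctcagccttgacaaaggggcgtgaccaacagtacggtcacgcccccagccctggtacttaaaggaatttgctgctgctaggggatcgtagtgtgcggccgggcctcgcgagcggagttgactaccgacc
Tcf3: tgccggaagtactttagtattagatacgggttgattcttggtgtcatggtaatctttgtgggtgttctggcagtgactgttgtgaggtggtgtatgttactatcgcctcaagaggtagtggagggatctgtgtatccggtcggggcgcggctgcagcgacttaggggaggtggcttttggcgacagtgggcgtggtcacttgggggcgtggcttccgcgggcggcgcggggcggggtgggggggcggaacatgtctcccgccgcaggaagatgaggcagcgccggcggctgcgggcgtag
Dsp: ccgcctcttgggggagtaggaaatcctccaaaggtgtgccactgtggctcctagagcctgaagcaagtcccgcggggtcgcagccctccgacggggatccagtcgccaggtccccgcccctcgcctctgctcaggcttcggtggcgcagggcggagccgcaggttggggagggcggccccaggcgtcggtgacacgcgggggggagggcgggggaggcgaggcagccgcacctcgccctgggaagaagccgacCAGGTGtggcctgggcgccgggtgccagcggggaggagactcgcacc
Epcam: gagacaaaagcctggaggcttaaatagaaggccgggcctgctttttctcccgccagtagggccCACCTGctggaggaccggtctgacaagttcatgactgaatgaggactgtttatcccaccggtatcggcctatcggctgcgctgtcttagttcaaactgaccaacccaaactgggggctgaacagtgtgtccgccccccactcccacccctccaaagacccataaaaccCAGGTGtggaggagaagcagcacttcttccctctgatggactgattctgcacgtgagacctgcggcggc

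The Snai1 promoter held 1 match, whose first base lay 126 bases before the start site, so the gene for a CACCTG-binding repressor itself carried the motif. The Tcf3 promoter held none, although 1 other E-box of the general form CANNTG was present. Dsp had 1 match just after its start site, and Epcam had 2. Of the 5 factor genes with an entry, which also include Twist1, Twist2 and Zeb2, 1 held the motif. In a list of 25 epithelial genes known as targets of these repressors, 17 had an entry and 15 of them held it. The list was chosen for that known repression, so its share is no independent evidence. Cldn1 and Jup had an entry without the motif. Patj was looked up only by its older symbol Inadl, so an entry under the name Patj would have been missed. Counted the same way, 22.6% of the 27025 genes with an entry held CACCTG or CAGGTG on either strand in at least 1 of their entries. Counted per entry, the share was 20.2% of 32851 promoter sequences of this length, and 72.3% of them held any CANNTG. These matches describe letters in the windows and are not measurements of binding.

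The 6 libraries held 17053436 to 26344170 reads on genes, and the values are normalized counts, the reads of a gene divided by 1 scale factor per library. In this unit 3 reads correspond to 2.40 to 3.58. Rnf40 itself, the check of the labels, fell from 1190 ± 91.2 to 482 ± 39.9 normalized counts (SD, n = 3 each; log2 fold change -1.30, limma adjusted p = 4.25e-07). Fibroblast markers were abundant in every library (summed level of 10 genes 669465 to 741504 in Rnf40+/+ and 400462 to 403413 in Rnf40-/-, 8 of 10 lower). Epithelial cell markers summed to 460 to 814 and 602 to 842, most of it Krt19, with 1 of 5 tested higher, and Cdh1, Epcam and Grhl2 were near 0. Summed macrophage markers were 5769 to 9857 in Rnf40+/+ and 3699 to 4103 in Rnf40-/- libraries (3 of 9 tested lower, 2 higher), and endothelial markers 241 to 330 and 305 to 402 (1 of 8 lower, 3 higher). Neural markers were 3465 to 4820 and 2444 to 2768 (1 of 4 lower, Olig2 at 0 reads), and skeletal muscle markers 2103 to 5302 and 715 to 911 (2 of 3 lower, Myod1 at 0 reads). Smooth muscle and pericyte markers summed to 155193 to 169672 in Rnf40+/+ and 26135 to 31212 in Rnf40-/- libraries (6 of 8 lower, 1 higher), and cycling cell markers to 4210 to 5295 and 840 to 986 (10 of 10 lower). The counts of called markers stand beside 24.1% lower and 23.3% higher among all genes tested. The summed levels of the fibroblast, macrophage, neural, skeletal muscle, smooth muscle and cycling cell lists were thus lower along with the 8 factor genes, and their part in the falls of the 8 was not tested. Rnf40+/+ replicate 3 was the deepest library and stood furthest from its group. Without it, the log2 fold changes of the 8 genes lay between -1.18 and -0.21, and all were still called lower.

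Snai1 and Snai2, the SNAIL repressor genes, had the largest falls of the 8. Snai1 (mm9 chromosome 2, 167363695 to 167368314, plus strand, 3 exons) had 727, 770 and 942 normalized counts in Rnf40+/+ replicates 1 to 3, and 390, 428 and 449 in the Rnf40-/- libraries. Even the highest Rnf40-/- library was 278 normalized counts below the lowest Rnf40+/+ library. The mean went from 813 ± 113 to 422 ± 30.4 (SD, n = 3 each), and the log2 fold change was -0.94 (SE 0.11, 95% interval -1.17 to -0.70, limma adjusted p = 2.13e-05). Snai2 (chromosome 16, 14705945 to 14709488, plus strand, 3 exons), which encodes SLUG, the repressor active in neural crest and many fibroblasts, had 1658, 1773 and 1568 normalized counts in Rnf40+/+ and 761, 765 and 749 in Rnf40-/-. The 3 Rnf40-/- libraries were nearly equal, and the gap between the genotypes, 803 normalized counts, was the widest of the 8 genes beside that of Tcf3 (802). The mean fell from 1666 ± 103 to 758 ± 8.41, and the log2 fold change was -1.13 (SE 0.07, 95% interval -1.29 to -0.98, limma adjusted p = 2.17e-07). Snai2 was the 1 gene of the 8 that also passed a stricter threshold built on the study's criteria (mean above 15, unadjusted p under 0.05 and a log2 fold change beyond 1), which 5.7% of the genes tested passed on the lower side. Snai1 joined it when Rnf40+/+ replicate 1 was left out (log2 fold change -1.01). Snai3, the third SNAIL gene, had too few reads to be tested.

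**Figure D1:**
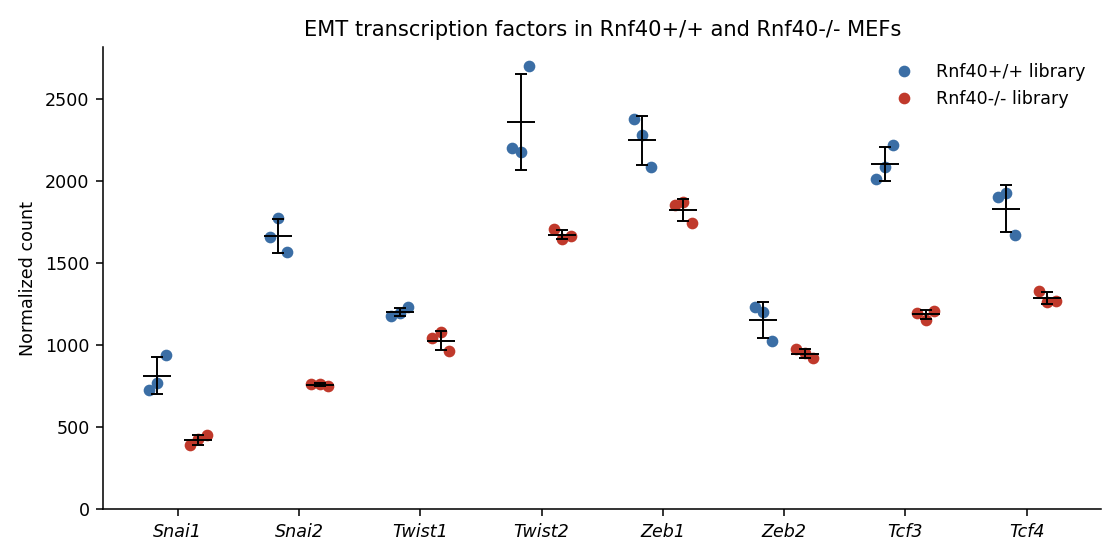
Normalized counts of the 8 EMT factor genes in each library (points: 3 Rnf40+/+ and 3 Rnf40-/- libraries; bars: mean ± SD), side by side for each gene. For every gene all Rnf40-/- points lie below all Rnf40+/+ points, with the widest gap for Snai2 (803) and the narrowest for Zeb2 (52.2).

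The ZEB genes had smaller falls, and Zeb2 had the narrowest gap between the genotypes. Zeb1, whose protein represses E-cadherin and is itself held down by the miR-200 family, had 2377, 2277 and 2084 normalized counts in Rnf40+/+ and 1850, 1868 and 1744 in Rnf40-/-. It lies on mm9 chromosome 18 (5591858 to 5775465, plus strand). The lowest Rnf40+/+ library remained 216 normalized counts above the highest Rnf40-/- library. Zeb1 fell from 2246 ± 149 to 1821 ± 67.0 (SD, n = 3 each; log2 fold change -0.30, SE 0.07, limma adjusted p = 0.00372). Zeb2 (chromosome 2, 44839154 to 44972915, minus strand), encoding the SMAD-binding repressor SIP1, had 1229, 1198 and 1027 normalized counts in Rnf40+/+ and 975, 949 and 922 in Rnf40-/-. The genotypes were separated by 52.2 normalized counts, less than the spread among the Rnf40+/+ libraries. Its mean was 1151 ± 109 against 948 ± 26.6 (log2 fold change -0.28, SE 0.08, 95% interval -0.45 to -0.10, limma adjusted p = 0.0151). The call on Zeb2 was lost without Rnf40+/+ replicate 1 or 2 or without Rnf40-/- replicate 3 (limma adjusted p = 0.0535, 0.0570 and 0.0563). Genes on the opposite strand overlap both loci. Gm10125, at the 5′ end of Zeb1, had means of 159 and 193 normalized counts, and Gm13476, within Zeb2, had 41.2 and 31.2, and neither passed the test. The strand setting used in counting is not given in the sources used here.

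The products of the TWIST genes pattern mesoderm and skeleton. Twist1 (chromosome 12, 34642536 to 34644682, plus strand) had 1179, 1193 and 1231 normalized counts in Rnf40+/+ and 1041, 1078 and 963 in Rnf40-/-. It showed the smallest fall of the 8, from 1201 ± 27.2 to 1027 ± 58.7 (SD, n = 3 each; log2 fold change -0.23, SE 0.07, 95% interval -0.38 to -0.07, limma adjusted p = 0.0205). Without Rnf40-/- replicate 1 or 3 the adjusted p rose to 0.0596 and 0.0875 (limma), and with upper-quartile normalization it was 0.0564, so the Twist1 call is the least firm of the group along with that of Zeb2. Twist2 (chromosome 1, 93698038 to 93744605, plus strand), also known as DERMO1, had 2202, 2176 and 2697 normalized counts in Rnf40+/+ and 1704, 1647 and 1665 in Rnf40-/-. Replicate 3 was well above the other Rnf40+/+ libraries, yet the lowest of the 3 still exceeded every Rnf40-/- library by 472 normalized counts. The mean fell from 2358 ± 293 to 1672 ± 29.2 (log2 fold change -0.49, SE 0.08, limma adjusted p = 0.000488), and without Rnf40+/+ replicate 3 the log2 fold change was -0.39.

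Both E-protein genes fell. Tcf3 (chromosome 10, 79872259 to 79896392, minus strand) encodes E12 and E47, splice forms that pair with tissue-specific bHLH factors. It had 2011, 2082 and 2215 normalized counts in Rnf40+/+ and 1195, 1153 and 1210 in Rnf40-/-, and both sets were tight. Its mean fell from 2103 ± 104 to 1186 ± 29.2 (SD, n = 3 each; log2 fold change -0.82, SE 0.07, 95% interval -0.97 to -0.68, limma adjusted p = 1.49e-06). Tcf4 (chromosome 18, 69503800 to 69847621, plus strand) had 1901, 1923 and 1667 normalized counts in Rnf40+/+ and 1327, 1261 and 1268 in Rnf40-/-. It fell from 1831 ± 142 to 1285 ± 36.1 (log2 fold change -0.51, SE 0.07, 95% interval -0.67 to -0.35, limma adjusted p = 0.000145). Of the genes with the same older names, Tcf7l1 went from 579 ± 45.3 to 408 ± 44.2 normalized counts (log2 fold change -0.50, limma adjusted p = 0.00171) and Tcf7l2 from 606 ± 55.5 to 500 ± 18.7 (log2 fold change -0.27, limma adjusted p = 0.0280). The Tcf7l2 call was lost when any 1 library but Rnf40+/+ replicate 3 was left out (limma adjusted p = 0.0605 to 0.0941) and with upper-quartile normalization (limma adjusted p = 0.0655).

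**Figure D2:**
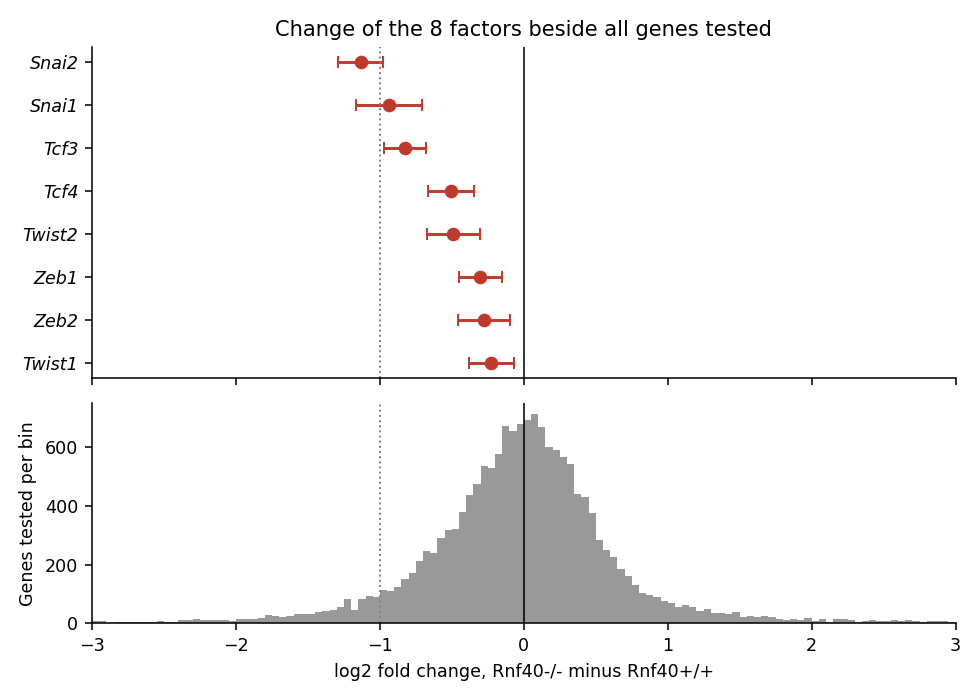
Top, log2 fold change (Rnf40-/- minus Rnf40+/+, points) of each gene with its 95% interval (bars), and bottom, a histogram of the same value for the 16378 genes tested, whose axis leaves out 115 genes at or beyond 3 in size (dotted line: -1). All 8 intervals lie left of 0, with points from -1.13 (Snai2) to -0.23 (Twist1).

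Placed among all genes tested, the log2 fold change of Snai2 was at percentile 4.71, that of Snai1 at 7.03 and that of Tcf3 at 8.76. Tcf4 and Twist2 were at 17.9 and 18.7, and Zeb1, Zeb2 and Twist1 at 28.0, 29.7 and 32.9. The 8 falls thus differed widely in rank. The Rnf40+/+ libraries did not move together across the 8: replicate 3 was the highest of them for Snai1, Twist1, Twist2 and Tcf3, and the lowest for Snai2, Zeb1, Zeb2 and Tcf4. Whether the depth of that library bears on these opposite deviations was not tested.

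Ratios within each pair of related genes were compared to see whether the pair changed unequally. The log2 ratio of Snai1 to Snai2 was -1.04 ± 0.27 in Rnf40+/+ and -0.85 ± 0.11 in Rnf40-/- (SD, n = 3 each), a difference of 0.20 with overlapping libraries (exact permutation test, two-sided, p = 0.4, adjusted p = 0.5 over the 4 pairs). Zeb1 to Zeb2 was 0.97 ± 0.05 and 0.94 ± 0.03, a difference of -0.026 (exact permutation p = 0.5, adjusted p = 0.5), again with overlap. In the other pairs the libraries did not overlap. The log2 ratio of Twist1 to Twist2 was -0.97 ± 0.14 in Rnf40+/+ and -0.70 ± 0.09 in Rnf40-/-, a difference of 0.26. The log2 ratio of Tcf3 to Tcf4 went from 0.20 ± 0.18 to -0.12 ± 0.04, a difference of -0.32. For both, the exact permutation p was 0.1 (adjusted p = 0.2), the smallest that 3 libraries against 3 can give, so neither difference could pass 0.05.

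**Figure D3:**
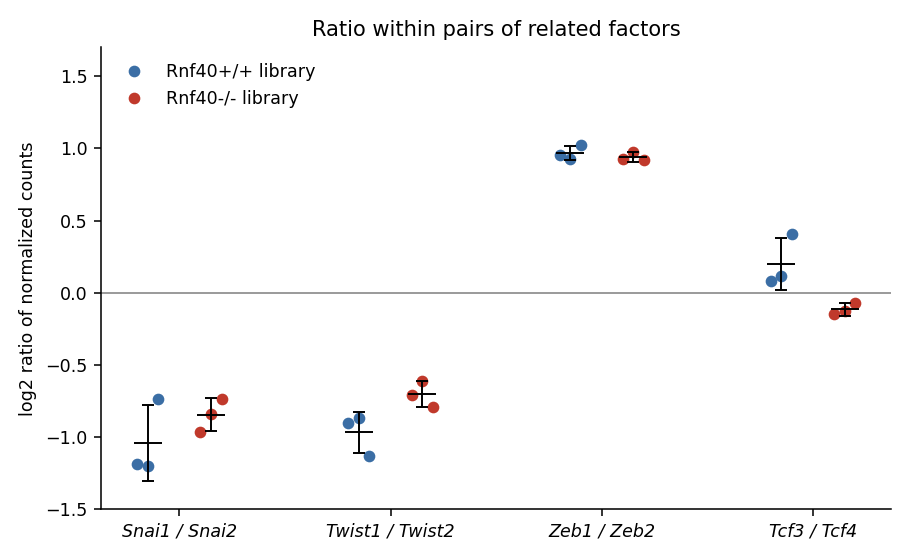
Log2 ratio of normalized counts within each pair of related genes, per library (points), with the mean ± SD (bars) for Rnf40+/+ and Rnf40-/-. The genotypes overlap for Snai1 to Snai2 and Zeb1 to Zeb2, and are apart for Twist1 to Twist2 and Tcf3 to Tcf4.

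To compare genes with each other, normalized counts were divided by the length of the longest annotated transcript. On this scale Twist2 was the most abundant in Rnf40+/+ cells (1775 ± 221 normalized counts per kb), followed by Snai2 (820 ± 50.8), Twist1 (743 ± 16.8), Tcf3 (713 ± 35.1), Snai1 (501 ± 70.0), Zeb1 (387 ± 25.6), Tcf4 (247 ± 19.2) and Zeb2 (126 ± 11.9). Twist1 and Tcf3 overlapped between libraries, and all other neighbours were apart. In Rnf40-/- cells Twist2 still led (1258 per kb), but Twist1 (636), Tcf3 (402) and then Snai2 (373) followed, so Snai2 moved from the second place to the fourth. Zeb1 (314) came before Snai1 (261), the reverse of their order in Rnf40+/+ cells, and Tcf4 (174) and Zeb2 (104) stayed last. Summed over the 8 genes the level per kb went from 5313 ± 245 to 3521 ± 38.6, which is 66.3% of the Rnf40+/+ sum. The lengths matter for genes with many annotated transcripts. With the median transcript length, Zeb1 had 1590, Tcf4 1000, Tcf3 744 and Zeb2 428 normalized counts per kb in Rnf40+/+ cells. Zeb1 and Tcf4 then stood above Snai2 (820), and Zeb1 stood above Snai1 (501). The second place of Snai2 and the reversal of Zeb1 and Snai1 thus rest on the longest transcript. The Rnf40-/- order was not drawn up with the median length.

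In the study's lists of genes by H3K4me3 breadth, as far as they were held here, Snai1, Snai2, Twist1, Twist2, Zeb2 and Tcf4 stood among the genes with broad peaks and Tcf3 among those with sharp peaks, while Zeb1 was in none. Both labels thus occurred among the genes that fell most. Of the broad list, 795 genes were among the 16378 tested, and 42.3% of them were called lower (median log2 fold change -0.17). The share called lower was 24.1% over all genes tested, and whether peak breadth bears on the falls was not tested. Snai2 was in the study's list of downregulated genes as well, which was drawn from these same libraries and is no independent evidence.

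Dimer partners and inhibitors of the bHLH factors showed mixed changes. Of 6 such genes tested from a list of 10, 4 were called lower and 1 higher, with a median log2 fold change of -0.27. Over all genes tested, 24.1% were lower and 23.3% higher. Tcf12, the third E-protein gene, had 2577, 2433 and 2225 normalized counts in Rnf40+/+ and 2219, 2271 and 2008 in Rnf40-/-. These libraries overlapped, and the log2 fold change of -0.15 (SE 0.08) missed the threshold (limma adjusted p = 0.113), although it passed without Rnf40+/+ replicate 3 (adjusted p = 0.0280, limma). All 4 ID genes, encoding the inhibitors of E proteins, were called lower. Id4 fell from 409 ± 28.1 to 227 ± 6.06 normalized counts (SD, n = 3 each; log2 fold change -0.84, limma adjusted p = 3.48e-05) and Id3 from 3999 ± 139 to 3286 ± 52.2 (log2 fold change -0.28, limma adjusted p = 0.00209). The calls on Id2 (log2 fold change -0.42, limma adjusted p = 0.0277) and Id1 (-0.25, limma adjusted p = 0.0423) had overlapping libraries and were lost without any 1 of Rnf40+/+ replicates 1 and 2 and Rnf40-/- replicates 1 and 3, and for Id1 also without Rnf40-/- replicate 2. The adjusted p was then 0.0549 to 0.127 for Id2 and 0.0603 to 0.149 for Id1 (limma). The Id1 call was also lost with upper-quartile normalization and without a filter on low counts (limma adjusted p = 0.0975 and 0.0532). Hand2, a limb and heart bHLH gene, was the 1 called higher, from 76.8 ± 27.7 to 123 ± 21.5, and its call was lost without any 1 of the same 4 libraries as that of Id2 (adjusted p = 0.0754 to 0.107, limma).

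Other transcription factors of mesenchymal cells moved like the 8 in part. Of 13 tested from a list of 15, 6 were called lower, 1 higher and 6 not, with a median log2 fold change of -0.40. The background was 24.1% lower and 23.3% higher among all genes tested. Prrx1, a homeobox gene of limb and craniofacial mesenchyme, fell from 9166 ± 753 to 5589 ± 98.0 normalized counts (log2 fold change -0.71, limma adjusted p = 7.63e-06), and its relative Prrx2 fell from 1657 ± 110 to 1138 ± 61.7 (-0.54, limma adjusted p = 0.000102). Sox9, a master regulator of cartilage, fell from 363 ± 54.1 to 200 ± 10.6 (-0.85, limma adjusted p = 0.000156). Klf8 had 65.6 and 41.9 normalized counts and missed the threshold (log2 fold change -0.74, limma adjusted p = 0.0718), and leaving out 1 library moved it from -0.995 without Rnf40-/- replicate 1 (adjusted p = 0.0328, limma) to -0.33 without Rnf40-/- replicate 3 (adjusted p = 0.271, limma). The 1 gene called higher, identified after the values were seen, was the pigment cell factor gene Mitf, at 109 ± 20.4 and 155 ± 21.2 normalized counts (log2 fold change 0.51, limma adjusted p = 0.0297), and its call was lost without Rnf40+/+ replicate 1 or 2 or Rnf40-/- replicate 1 or 2 (limma adjusted p = 0.0732 to 0.122).

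The epithelial factors were at low levels in both genotypes. Of the 15 epithelial factors that oppose EMT, 5 had enough reads to be tested, and 4 of these were called higher and none lower. Among all genes tested, 23.3% were called higher and 24.1% lower. A gene with reads in Rnf40-/- libraries alone could enter the test, so this count leans to rises. Klf5, a factor of gut and skin epithelium, rose from 51.2 ± 13.4 to 103 ± 23.7 normalized counts (log2 fold change 1.00, limma adjusted p = 0.00488) and Grhl3, a surface ectoderm factor, from 11.7 ± 6.75 to 41.1 ± 7.75 (1.91, limma adjusted p = 0.00437). Foxa1 and the splicing regulator gene Esrp2 were called higher too. Their means were 6.16 and 26.3 in Rnf40+/+ and 19.0 and 48.5 in Rnf40-/- cells. Foxa1 and Grhl3, with as few as 3 and 5 reads in a library, entered the test through the Rnf40-/- libraries. Neither was tested when at least 10 reads were asked of every library. The Esrp2 call was lost without any 1 of 5 libraries, all but Rnf40+/+ replicate 2 (limma adjusted p = 0.0516 to 0.0997). Summed over the 15 genes the level was 119 to 163 normalized counts in Rnf40+/+ and 270 to 287 in Rnf40-/-, below the lowest library of every one of the 8 factor genes in the same genotype.

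Of the 25 epithelial genes known as their targets, 12 were tested, and 5 were called higher, 3 lower and 4 not. Beside them, 23.3% of all genes tested were called higher and 24.1% lower. As for the epithelial factors, genes with enough reads in Rnf40-/- libraries alone could enter the test, so the count of rises is no support for a direction of the list. Among the genes called higher, this applied to Cldn4 only. Dsp, St14, Llgl2 and Lama5 had at least 44 reads in every library. St14, Llgl2 and Lama5 were named after their values were seen. Dsp, encoding the desmosome protein desmoplakin, had 182, 167 and 107 normalized counts in Rnf40+/+ and 940, 816 and 956 in Rnf40-/-. It rose on average from 152 ± 39.5 to 904 ± 76.4 (SD, n = 3 each; log2 fold change 2.60, SE 0.17, limma adjusted p = 2.65e-07). The tight-junction gene Cldn4 had 2.39, 7.14 and 8.78 normalized counts in Rnf40+/+ and 19.4, 19.8 and 19.8 in Rnf40-/- (log2 fold change 1.68, limma adjusted p = 0.0120), so it entered the test through the Rnf40-/- libraries, and it was not tested when at least 10 reads were asked of every library. Cldn1, of the same claudin family, fell from 297 ± 5.66 to 97.8 ± 6.94 (log2 fold change -1.60, limma adjusted p = 1.15e-06). Jup, encoding plakoglobin, had 2424 ± 177 and 2074 ± 66.4 (log2 fold change -0.22, limma adjusted p = 0.0200), a call lost without Rnf40+/+ replicate 3 or Rnf40-/- replicate 2 or 3 (limma adjusted p = 0.0559 to 0.0726) or with upper-quartile normalization (limma adjusted p = 0.0517). Krt19 had 502 and 674 and missed the threshold (limma adjusted p = 0.107), but passed without Rnf40+/+ replicate 3 or Rnf40-/- replicate 1 (adjusted p = 0.000504 and 0.0482, limma). Its log2 fold change of 0.48 ranged from 0.25, without Rnf40+/+ replicate 1, to 0.79, without Rnf40+/+ replicate 3. Cdh1, named here after its values were seen as the textbook target, had 2.39, 4.08 and 3.19 normalized counts in Rnf40+/+ and 7.14, 2.09 and 1.89 in Rnf40-/-, so at most 7 reads were found in a library. A difference in Cdh1 was not detectable at this depth. Epcam had 0, 0 and 1.60 normalized counts in Rnf40+/+ and 4.08, 4.17 and 8.498 in Rnf40-/-, at most 9 reads, and was not tested.

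**Figure D4:**
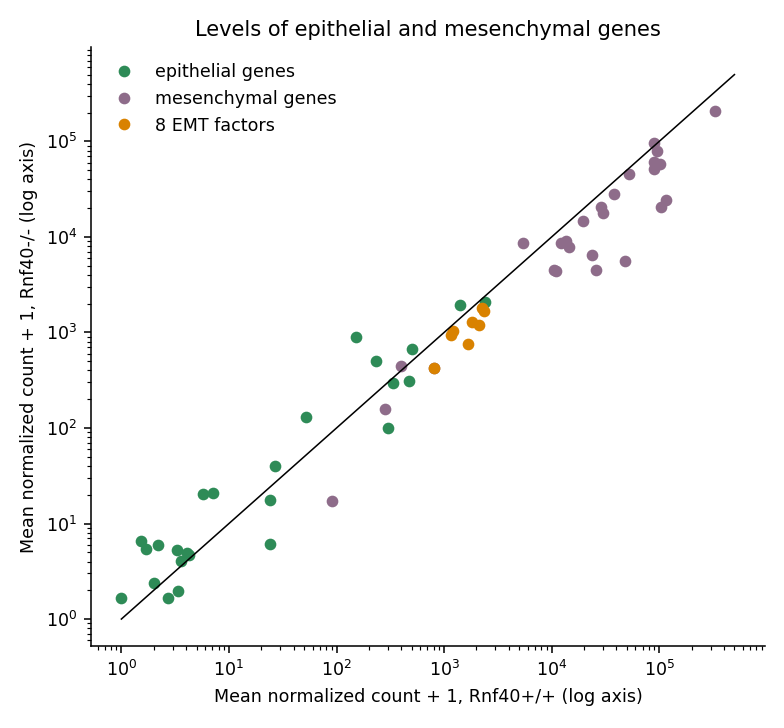
Mean normalized count + 1 of each gene in Rnf40-/- (vertical, log axis) against Rnf40+/+ (horizontal, log axis) for the 8 factor genes, the 25 epithelial genes and the 26 mesenchymal genes (points; line: equal means). The 8 factor genes lie below the line between the mostly low epithelial genes and the mostly higher mesenchymal genes.

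**Figure D5:**
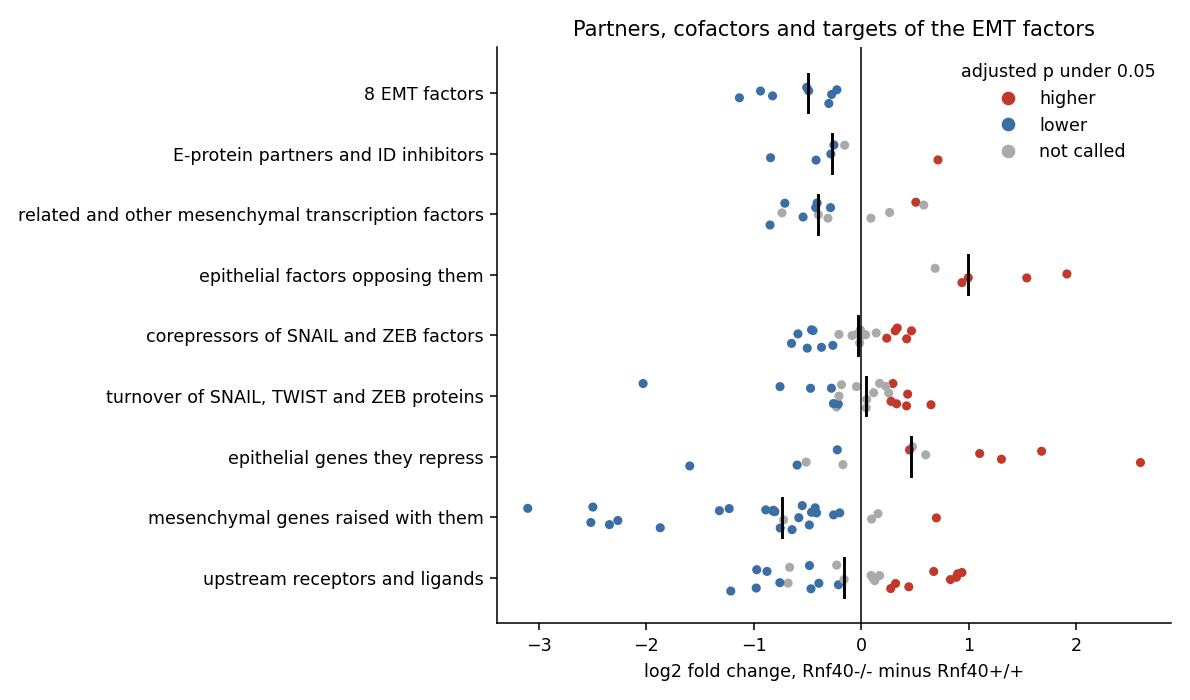
Log2 fold change (Rnf40-/- minus Rnf40+/+) of each tested gene (points, coloured by whether it was called) in the 8 factor genes and 8 lists around them (black bars: medians). The medians run from -0.74 for mesenchymal genes to 1.00 for the 5 tested epithelial factors, and lie at -0.50 for the 8 factor genes. The median of 1.00 covers only 5 of 15 epithelial factors. Genes with reads in Rnf40-/- libraries alone could enter that test, so it leans to rises.

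Genes known to rise with these factors in an EMT were mostly lower. Of 26 mesenchymal genes, all tested, 22 were called lower, 1 higher and 3 not, with a median log2 fold change of -0.74. The shares over all genes tested were 24.1% lower and 23.3% higher. The smooth-muscle actin-binding gene Tagln fell from 47935 ± 2930 to 5587 ± 462 normalized counts (log2 fold change -3.10, limma adjusted p = 3.50e-10), and the matrix gene Postn by 2.50 on the log2 scale (limma adjusted p = 2.26e-08). Acta2, encoding smooth muscle actin, fell by 2.34 (limma adjusted p = 7.63e-09), and Mmp9, a gelatinase gene at 89.5 normalized counts in Rnf40+/+, by 2.52 (limma adjusted p = 0.00111). Tagln and Acta2 are also in the smooth muscle list whose sum moved with genotype. Likewise, Vim, Fn1, Thy1, Col1a1, Col1a2 and Col3a1 are in the fibroblast list, whose sum was lower. These lists are therefore not separate observations. Vim, encoding vimentin, differed by -0.26 (limma adjusted p = 0.0483), and this call was lost under 10 of the 15 alternative analyses, including those without any 1 library except Rnf40+/+ replicate 3 (limma adjusted p = 0.0521 to 0.176). The 1 gene called higher, identified after the values were seen, was Cdh2, encoding N-cadherin, with 5378 ± 529 and 8705 ± 128 normalized counts (log2 fold change 0.70, limma adjusted p = 1.29e-05).

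Lists of genes whose products act on or upstream of the factors had calls in both directions, as did all genes tested, of which 24.1% were lower and 23.3% higher. Among 20 corepressors of SNAIL and ZEB proteins, 7 were called lower and 5 higher, with a median log2 fold change of -0.026. Ehmt2, the histone methyltransferase G9a, fell by 0.65 on the log2 scale, Suv39h1 by 0.59, the arginine methyltransferase gene Prmt5 by 0.50 and the ZEB corepressor gene Ctbp1 by 0.46 (limma adjusted p = 8.30e-06, 0.000436, 0.000397 and 0.000109). Hdac1 had 2535 ± 117 and 2469 ± 98.5 normalized counts (log2 fold change -0.038, turning to 0.0104 with upper-quartile normalization, limma adjusted p = 0.661). Of 22 genes tested that stabilise or degrade the factor proteins, 6 were called lower and 6 higher, shares near that background. Loxl3 and Loxl2, lysyl oxidase-like genes whose products stabilise SNAIL protein, fell by 2.03 and 0.76 (limma adjusted p = 2.41e-09 and 3.13e-06). Loxl3 went from 5008 ± 290 to 1225 ± 10.8 normalized counts. The ubiquitin ligase gene Fbxl5, whose product degrades SNAIL, rose by 0.65 (limma adjusted p = 1.60e-05), and Mdm2 fell by 0.28 (limma adjusted p = 0.00384).

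Of 25 upstream ligand, receptor and signal genes, 9 were called lower and 8 higher, beside 24.1% and 23.3% of all genes tested, and the median log2 fold change was -0.16. Tgfb3, a TGF-beta ligand gene, fell from 4083 ± 289 to 2079 ± 87.7 normalized counts (log2 fold change -0.97, limma adjusted p = 6.02e-07), and Hmga2, a chromatin factor gene that can activate Snai1 and Twist1, from 10458 ± 1065 to 5296 ± 114 (-0.98, limma adjusted p = 1.27e-06). Fgf2 fell by 1.21 from 38.5 normalized counts (limma adjusted p = 0.0191), a call lost without Rnf40-/- replicate 2 (adjusted p = 0.0643, limma). Ctnnb1, encoding beta-catenin, rose by 0.32 (limma adjusted p = 0.00180).

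The genes whose values over the 6 libraries were most like those of the factors that fell most were found by Pearson correlation among 11548 genes, as a description, since all 6 libraries share the genotype contrast. For Snai2 these were Fam198b, Tceal8 and Prickle3 (r = 0.9995, 0.9993 and 0.9993), and 296 genes had an r above 0.99. For Snai1 they were 1810058I24Rik, Arsa and C1qtnf5 (r = 0.9993, 0.9987 and 0.9983), with 64 genes above 0.99. Among the 8 themselves, r ran from 0.607 between Twist2 and Zeb2 to 0.984 between Snai2 and Tcf3.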

How the data were processed

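RNA-seq comprised 3 Rnf40+/+ and 3 Rnf40-/- MEF libraries made with a strand-specific kit. The deposited table holds a signal per gene, the read count divided by 1 DESeq size factor per library. The authors mapped reads to the mm9 transcriptome, and the submitters' processing notes name Bowtie2 2.1.0 and DESeq 1.14.0. Whole reads were recovered from the steps of the deposited values (100% of positive values whole within 0.1 read). Log2(normalized count + 1) was tested with limma 3.58.1 (trend, genotype as the only term) after a filter on low reads (filterByExpr, edgeR 4.0.16), and p-values were adjusted over 16378 genes by the method of Benjamini and Hochberg. Fold changes on this scale understate the change of low genes. Called means an adjusted p under 0.05. The stricter threshold took the study's mean above 15, unadjusted p under 0.05 and log2 fold change beyond 1. Alternatives were DESeq2 1.42.0, edgeR quasi-likelihood with TMM, other scalings, filters and pseudocounts, a replicate block, and each library left out. The scripts were tested on simulated data. Named genes were the 8 factors, and in each list the 3 with the largest log2 fold change and the 2 with the highest level per kb, plus Tcf12, Id1 to Id4, Rnf40, Tcf7l1, Tcf7l2 and the 3 genes most like each of the 2 factors that fell most (mean above 100). The genes and lists were chosen with earlier results of these data known. Libraries of a genotype differed by more than counting error. Between pairs of them the mean chi-square per gene was 5.33 to 28.8, where counting error alone gives about 1. Gene positions are from an mm9 annotation, and promoters are from RefSeq.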

Additional observations from a re-analysis of the deposited data

How the results depend on the processing

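Under the 15 alternatives Snai1, Snai2, Twist2, Zeb1, Tcf3 and Tcf4 remained called lower. The count of the 8 factors called lower was 8 in 10 of the 15 and 6 to 8 when 1 library was left out (6 without Rnf40-/- replicate 3). With upper-quartile normalization it was 7, the median of all genes moved to 0.044, Twist1 had a log2 fold change of -0.18 (limma adjusted p = 0.0564), Hdac1 turned to 0.0104 and 2 related mesenchymal factors were called higher. The related factors called higher were also 2 with at least 10 reads in every library, with a pseudocount of 10 and with the replicate block. Epithelial genes called higher were 8 without a filter, and epithelial factors called higher were 2 with at least 10 reads in every library, where fewer genes are tested. Leaving out 1 library gave 1 to 2 factors past the stricter threshold, 2 to 5 partner and ID genes called lower and 0 to 1 higher, 0 to 1 related factors higher, a Twist1 log2 fold change of -0.26 to -0.18, a Zeb2 one of -0.36 to -0.23, and a Zeb1 to Zeb2 ratio difference of -0.046 to 0.0016, positive without Rnf40+/+ replicate 3. Same-numbered libraries hardly deviated together (r = 0.0118, 0.0174 and 0.0212). Differently numbered libraries of the 2 genotypes had r from -0.0531 to 0.0371. No pairing by number was seen, but small correlations over all genes cannot exclude one. With the replicate block 8 factors were still called lower, and 4196 genes were lower and 4021 higher, against 3955 and 3809 without it. Klf8 and Krt19 passed only with the block (adjusted p = 0.0448 and 0.00397, limma) among the alternatives that keep all libraries. The causes of these shifts were not tested. Depth limits the epithelial genes, many of which had too few reads to be tested.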
